A study of Mus musculus with 32 samples.

Results

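The collagen genes are described here in murine interscapular brown adipose tissue (iBAT), a fat depot of the upper back that burns lipid to make heat. The members are the rows of the deposited count matrix whose gene symbol has the form of a collagen chain and whose counts, summed over all libraries, reached 320. Of 50686 genes in the matrix, 44 had such a symbol and 28 reached the minimum. Just inside it lay Col4a3 with 987 counts and just outside it Col24a1 with 280, and the 16 chains below it, Col2a1 and Col10a1 of cartilage among them, are not described further. All 28 members passed the filter on low counts that left 15505 genes for testing.

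RNA was sequenced from male C57BL/6J mice of 10 weeks of age, fed chow ad libitum, not fasted, and housed at room temperature, a mild cold for mice, under a light:dark cycle. Zeitgeber time (ZT) counts hours after lights on, with the onset of the light (inactive) phase at ZT0 and that of the dark (active) phase at ZT12. The 8 groups of 4 mice were killed every 3 h from ZT0 to ZT21, with 1 library per mouse and no genetic or drug treatment. The question was which transcripts of the tissue changed over the day. Total counts per library ran from 16300770 to 18254659, of which the collagen genes took 0.112% to 0.259%.

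Collagens are trimers of chains wound into a triple helix, and they form most of the extracellular matrix around cells. Fibrillar collagens make up tensile fibres, and type IV collagen forms the sheet-like network of basement membranes, which in fat surrounds each adipocyte and each capillary. Type VI collagen forms beaded filaments that link both. In fat the chains are mainly made by fibroblast-like stromal cells, endothelial cells, pericytes and adipocytes. In bulk tissue a lower level can mean fewer cells of a type or less RNA per cell, and these cannot be told apart.

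The pair Col4a1 and Col4a2, the commonest type IV chains, lies head to head on chromosome 8 of the GRCm38 assembly. Col4a1 runs on the minus strand (chr8:11198423-11312826) and Col4a2 on the plus strand (chr8:11312805-11449287). Their start sites are so close that the first exons overlap by 22 bases, 0.295% of the exonic length of Col4a1 and 0.332% of that of Col4a2. The pair is shown because both chains had nearly the same daily profile. In the RefSeq promoter windows, which run from 250 bases before to 50 after a start site, the 2 genes share chr8:11312777-11312854, 78 bases with 73.1% G or C, written here on the plus strand. The windows of Col1a2 (chr6:4505368-4505667, plus strand) and of Col5a3 (chr9:20815018-20815317, minus strand) are added as those of the second chain of type I collagen and of the member with the largest amplitude among those called. Capitals mark matches on either strand to the GC box, GGGCGG, or to the second promoter motif searched, CCAAT.
Col4a1 and Col4a2, shared: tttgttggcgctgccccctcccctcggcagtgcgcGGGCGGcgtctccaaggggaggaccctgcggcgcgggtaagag
Col1a2: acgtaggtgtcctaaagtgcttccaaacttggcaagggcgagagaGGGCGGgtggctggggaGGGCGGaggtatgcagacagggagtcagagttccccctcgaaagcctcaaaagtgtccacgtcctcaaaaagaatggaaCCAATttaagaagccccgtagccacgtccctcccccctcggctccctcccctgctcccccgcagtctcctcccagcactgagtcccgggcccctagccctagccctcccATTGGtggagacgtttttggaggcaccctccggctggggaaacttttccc
Col5a3: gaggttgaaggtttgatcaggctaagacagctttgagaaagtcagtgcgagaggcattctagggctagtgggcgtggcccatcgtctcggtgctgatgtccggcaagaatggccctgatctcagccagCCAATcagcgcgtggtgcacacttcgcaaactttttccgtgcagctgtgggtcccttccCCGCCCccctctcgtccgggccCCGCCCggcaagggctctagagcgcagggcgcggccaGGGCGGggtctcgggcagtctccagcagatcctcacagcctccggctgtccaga

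A window was found for 23 of the 28 members, 25 windows in all, in RefSeq on GRCm38.p6. Col1a1, Col5a2, Col12a1, Col14a1 and Col4a3 had none. GGGCGG stood in 16 of these 25 windows and in 35.7% of all 32851 windows. CCAAT stood in 8 of the 25 and in 37.4% of all windows. CACGTG, the E-box that clock proteins can bind, stood in 0 of the 25 windows and in 7.15% of all, which says only that these letters are absent from these windows. AGGTCA, a nuclear receptor half-site, stood in 4 of the 25 (Col4a4, Col7a1, Col20a1 and Col23a1) and in 16.3% of all windows. TATAAA stood in 3 (Col3a1, Col11a2 and Col13a1) and in 13.6% of all. None of these 5 motifs contains another, and each was searched on both strands.

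Levels per length were compared as RPKM, the CPM (counts per 1e6 counts of a library) divided by the exonic length in kilobases. That length is annotated per gene (7464 bases for Col4a1, 6619 for Col4a2 and 9816 for Col3a1) and is not a measured transcript length. Ranks and ratios per length depend on it and are not read as those of transcript numbers. In total counts, with no length used, Col3a1 (167556) came after Col4a1 (235445) and before Col4a2 (141915). By RPKM, type IV collagen led the tissue. Col4a1 had the highest level with 56.7 ± 11.7 RPKM (SD, n = 32 libraries), followed by its partner chain Col4a2 with 38.5 ± 7.32 RPKM. Col3a1, the type III chain of thin reticular fibres, had 30.6 ± 10.1 RPKM. Col6a1 of the beaded filaments followed with 15.4 ± 3.12 RPKM and the type I chains Col1a1 and Col1a2 with 14.7 ± 6.16 and 10.6 ± 3.69 RPKM. The ranges of these neighbours over the libraries overlapped, from 39.1 to 80.2 RPKM for Col4a1, from 26.0 to 54.5 for Col4a2 and from 14.9 to 56.7 for Col3a1. These 6 genes held 72.7% of all member counts. At the other end, the kidney-type basement membrane chains Col4a3 and Col4a4 had 0.178 ± 0.0569 and 0.226 ± 0.0641 RPKM.

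**Figure D1:**
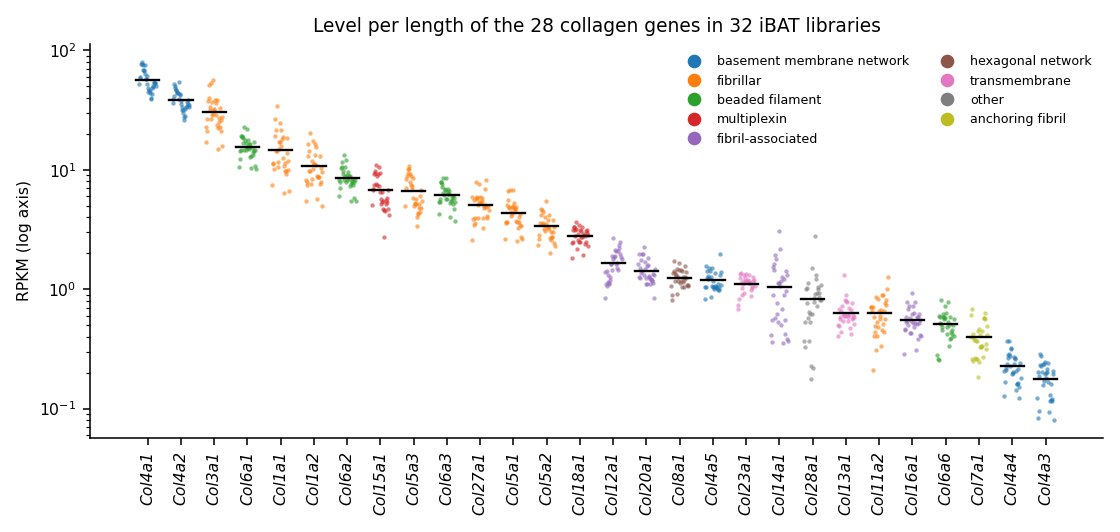
Level per length (RPKM, log axis) of the 28 collagen genes, ordered by their mean (black bar); each point is 1 of 32 libraries and the colour gives the collagen class. The type IV chains Col4a1 and Col4a2 lead with means of 56.7 and 38.5 RPKM, and Col4a3 is lowest with 0.178 RPKM. The order depends on the annotated exonic lengths.

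The summed level of the collagen genes had its highest mean at ZT3 and its lowest at ZT15. It was 1582 ± 239 CPM (SD, n = 4 mice) at ZT0, 2229 ± 183 at ZT3, 2047 ± 337 at ZT6, 1971 ± 301 at ZT9, 1720.4 ± 108 at ZT12, 1402 ± 274 at ZT15, 1585 ± 139 at ZT18 and 1489.6 ± 179 at ZT21. The 4 mice at ZT3 (2006 to 2453 CPM) lay above all mice at ZT0 (1287 to 1867 CPM) and at ZT15 (1119 to 1778 CPM).

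By JTK cycle analysis, a rank comparison with cosine templates, 18 of 28 members oscillated at P under 0.05, beside 39.7% of all tested genes. When these P values were adjusted by Benjamini-Hochberg (BH), 11 were left, beside 30.4% of all tested genes. With edgeR's quasi-likelihood test of a 24 h cosine, 17 of 28 members passed an adjusted p of 0.05, beside 36.1% of all tested genes, and all 17 were among those called by JTK at P under 0.05. With ties kept between equal template values, an alternative chosen after seeing the data, JTK gave 18 members at P under 0.05, beside 36.9% of all tested genes, and 9 after BH, beside 27.5%. Any difference between the 8 time points was called for 16 members, beside 39.8% of all tested genes. Without the 5 libraries highest in skeletal muscle transcripts the cosine test called 17 members and the JTK analysis 18. The shares of all tested genes in these refits are not given here.

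Of the 17 members with a cosine component, 15 peaked in the light phase, between ZT3.40 and ZT8.77, beside 50.9% of all 5602 genes called. The exceptions were Col12a1, whose fitted peak was at ZT15.2, and Col7a1 at ZT19.6. Peak-to-trough folds of the fitted curves ran from 1.39 (Col20a1) to 2.18 (Col5a3). The median amplitude, the height of the curve above its mean, was 0.33 on the log2 scale over the 28 members and 0.14 over all tested genes. By class, 6 of 8 fibrillar chains, 4 of 5 type IV chains, 3 of 4 type VI chains, 2 of 4 fibril-associated chains, 1 of 2 multiplexins and Col7a1 were called, and neither of the 2 transmembrane chains nor Col8a1 or Col28a1 was.

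**Figure D2:**
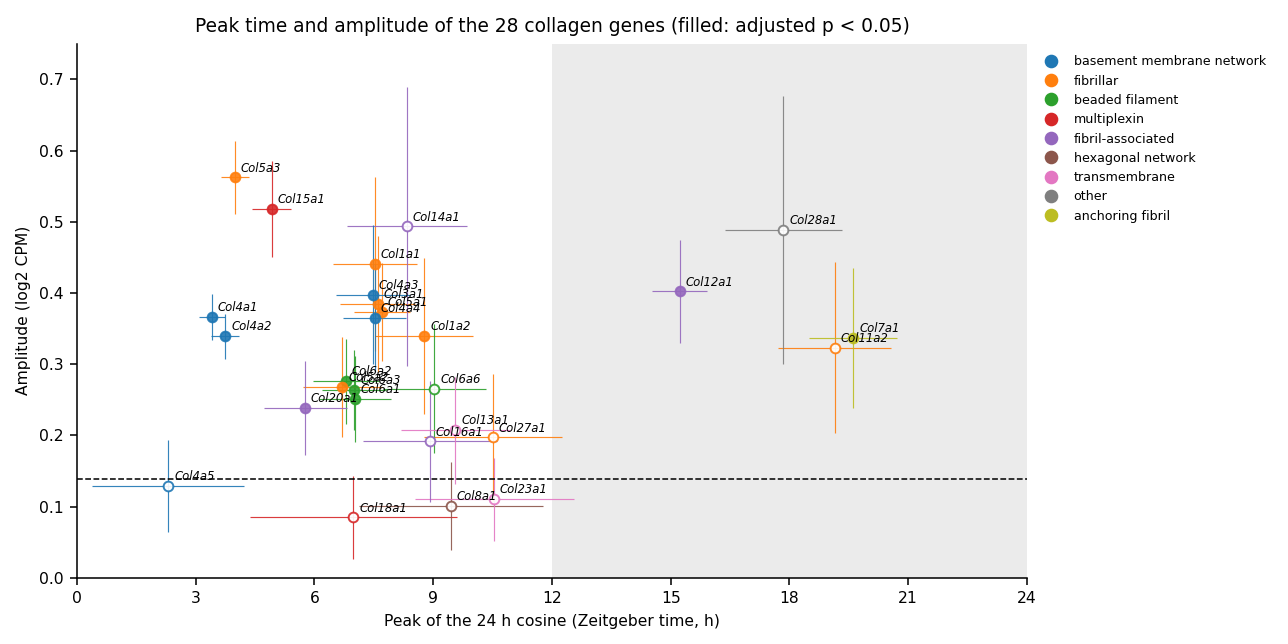
Peak time (ZT, h) and amplitude (log2 CPM) of the 24 h cosine for the 28 collagen genes, with bars of 1 SE; filled points passed an adjusted p of 0.05 (edgeR), the shaded span is the dark phase and the dashed line the median amplitude of all tested genes, 0.14. Of the 17 filled points, 15 lie in the light phase.

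Time of day was bound to sequencing lane. The labels place ZT0, ZT3 and ZT6 on lane 2, ZT9, ZT12 and ZT15 on lane 3, and ZT18 and ZT21 on lane 4, so lane and time cannot be told apart between lanes. With lane as an added term, 10 of the 28 members had a cosine component in the edgeR fit, beside 17.2% of all tested genes. These were Col5a3, Col4a2, Col4a1, Col15a1, Col5a1, Col6a2, Col6a1, Col27a1, Col6a3 and Col3a1. Of these, 9 were among the 17 called without lane, and Col27a1 was not. Within lane 2 the time points differed for 7 members (Col15a1, Col6a3, Col5a1, Col6a1, Col6a2, Col3a1 and Col5a2), beside 12.6% of all tested genes. This count was 0 without the 2 libraries of that lane that are high in muscle transcripts, and it was 1 without ZT0 replicate 1, 3 without ZT0 replicate 2, 2 without ZT0 replicate 3, 14 without ZT0 replicate 4, 4 without ZT3 replicate 1 or 2 and 2 without ZT3 replicate 3. Within lane 3 they differed for 3 members (Col4a2, Col4a1 and Col5a3), beside 1.78% of all tested genes. That count was 1 without ZT9 replicate 2 or 3 or without ZT15 replicate 2 or 4, and 0 without ZT15 replicate 3, and it was 1 when scaled by library size alone. Within lane 4 edgeR called 0 members, beside 4.02% of all tested genes, while 7 had an unadjusted p under 0.05, beside 19.9% of all tested genes, and DESeq2 called 2, beside 6.33%. The edgeR count was 1 without ZT21 replicate 4. Counts with libraries left out or with another scaling are given here without the share of all tested genes. A change in them is therefore not read as particular to the collagen genes.

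The basement membrane chains Col4a1 and Col4a2 had the steadiest profiles, with a median coefficient of variation between mice of the same time point of 6.30% and 5.81%, beside 16.5% over the members. Col4a1 read 598, 575, 558 and 515 CPM in the 4 mice at ZT3, its highest time point, and 338, 292, 298 and 318 CPM at ZT15, its lowest. The groups did not overlap. For each gene the highest and lowest of the 8 means were picked from these data, which favours such a gap. Col11a2 and Col28a1, without a called cosine, had no overlap between these groups either. The share of all tested genes with such a gap is not given. Wherever it is stated, absence of overlap is therefore a description and not a test. Its means over the day were 459.8 ± 76.7 CPM at ZT0, 562 ± 35.1 at ZT3, 513 ± 39.1 at ZT6, 428 ± 27.2 at ZT9, 343 ± 16.8 at ZT12, 312 ± 21.0 at ZT15, 375 ± 17.1 at ZT18 and 392 ± 13.2 at ZT21 (SD, n = 4). The fitted curve peaked at ZT3.40 ± 0.331 h (SE) with a log2 amplitude of 0.37 ± 0.0318 (edgeR, adjusted p = 1.95e-09, and 0.000321 beside lane). Within lanes its adjusted p was 0.178, 0.0230 and 0.517 in lanes 2, 3 and 4.

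Col4a2, which joins Col4a1 in the same trimer, read 329, 322, 310.1 and 306 CPM at ZT3 and 198, 172, 183 and 187 CPM at ZT15, again without overlap. Its means were 281 ± 47.1 CPM at ZT0, 317 ± 10.8 at ZT3, 308 ± 35.1 at ZT6, 269 ± 16.5 at ZT9, 219.6 ± 12.2 at ZT12, 185 ± 10.9 at ZT15, 226 ± 12.9 at ZT18 and 236 ± 12.8 at ZT21. It peaked at ZT3.74 ± 0.358 h with an amplitude of 0.34 ± 0.0318 (edgeR, adjusted p = 1.31e-08, and 0.000216 beside lane). Within lanes 2, 3 and 4 its adjusted p was 0.467, 0.0110 and 0.595. The ratio of Col4a1 to Col4a2 per length stayed between 1.35 and 1.61 in all 32 libraries.

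The other type IV chains were low. Col4a3 and Col4a4, which form a second head-to-head pair on chromosome 1, peaked at ZT7.47 ± 0.941 and ZT7.52 ± 0.793 h with amplitudes of 0.40 ± 0.0980 and 0.36 ± 0.0757 (edgeR, adjusted p = 0.0109 and 0.00174, and 0.119 and 0.0860 beside lane). An opposite-strand transcript overlaps 5.65% of the exonic length of Col4a3, and the strand setting of the counting was not given. Col4a5, on the X chromosome, had an amplitude of 0.13 ± 0.0648 and an adjusted p of 0.2 (edgeR).

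Among fibrillar collagens, Col5a3, a minor type V chain, had the largest fitted change. It read 64.1, 69.2, 73.8 and 68.8 CPM at ZT3 and 34.9, 27.5, 23.1 and 28.9 CPM at ZT15, with no overlap. Its means were 49.5 ± 11.7 CPM at ZT0, 69.0 ± 3.94 at ZT3, 56.6 ± 5.78 at ZT6, 48.4 ± 7.43 at ZT9, 35.7 ± 2.19 at ZT12, 28.6 ± 4.90 at ZT15, 31.8 ± 2.64 at ZT18 and 39.1 ± 5.51 at ZT21. The curve peaked at ZT3.99 ± 0.346 h with an amplitude of 0.56 ± 0.0509, a peak-to-trough fold of 2.18 (edgeR, adjusted p = 1.18e-09, and 0.000120 beside lane). Its adjusted p was 0.0935, 0.0247 and 0.136 within lanes 2, 3 and 4.

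Col5a1, the chain that starts type I fibrils and sets their width, was highest at ZT3 with 43.0, 56.3, 47.5 and 40.5 CPM and lowest at ZT21 with 29.0, 23.2, 28.9 and 22.4 CPM. Its means were 28.6 ± 4.28 CPM at ZT0, 46.8 ± 6.96 at ZT3, 42.8 ± 10.3 at ZT6, 44.3 ± 9.27 at ZT9, 40.9 ± 2.50 at ZT12, 31.4 ± 8.18 at ZT15, 32.3 ± 3.76 at ZT18 and 25.9 ± 3.56 at ZT21. Its means at ZT3, ZT6, ZT9 and ZT12 were the 4 highest. Transcripts on the opposite strand overlap 1.17% and 1.33% of its exonic length. The fitted peak was at ZT7.70 ± 0.704 h with an amplitude of 0.37 ± 0.0689 (edgeR, adjusted p = 0.000252, and 0.0110 beside lane). Its adjusted p was 0.0294, 0.288 and 0.162 within lanes 2, 3 and 4. Col5a2, its partner, peaked at ZT6.71 ± 0.997 h (edgeR, adjusted p = 0.00843, and 0.0620 beside lane).

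Among the 6 members with the highest level per length, the fibrillar chains of types I and III varied most between mice of a time point. Col1a1 read 126, 175, 141 and 93.4 CPM at ZT3 and 48.9, 74.7, 73.3 and 67.1 CPM at ZT0, without overlap. Its means were 66.0 ± 11.9 CPM at ZT0, 134 ± 34.1 at ZT3, 115 ± 72.5 at ZT6, 121 ± 28.2 at ZT9, 111 ± 24.4 at ZT12, 75.2 ± 34.3 at ZT15, 80.3 ± 28.0 at ZT18 and 69.5 ± 20.1 at ZT21. The median coefficient of variation within time points was 27.2% for Col1a1, 25.8% for Col1a2 and 21.1% for Col3a1. At 5 of the 8 time points (ZT3, ZT6, ZT12, ZT15 and ZT18) the mouse highest in Col1a1 was also the one highest in summed skeletal muscle markers, and for Col3a1 this held at 6 of 8. The part of muscle in this spread was not tested. Over all members, 26 of 28 had a variation above the median of 10.9% found for tested genes with a mean of at least 1 CPM. This comparison was not matched for level, and counting noise adds to the variation of low members. Col4a3, the lowest, had 14 to 49 counts in a library. The cosine of Col1a1 peaked at ZT7.53 ± 1.06 h with an amplitude of 0.44 ± 0.122 (edgeR, adjusted p = 0.00982), and missed the threshold beside lane (adjusted p = 0.0656) and within lanes 2, 3 and 4 (adjusted p = 0.108, 0.369 and 0.714).

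Col1a2, the other chain of type I collagen, read 161, 205, 177 and 121 CPM at ZT3 and 68.5, 103, 93.3 and 98.7 CPM at ZT0. Its means were 90.8 ± 15.3 CPM at ZT0, 166 ± 35.1 at ZT3, 143 ± 75.1 at ZT6, 157 ± 41.0 at ZT9, 161 ± 31.3 at ZT12, 120.1 ± 50.7 at ZT15, 118 ± 30.1 at ZT18 and 102 ± 30.2 at ZT21. The groups at ZT3 and ZT0 did not overlap. Its cosine call (peak ZT8.77 ± 1.24 h, edgeR, adjusted p = 0.0312) was lost beside lane (0.166) and without ZT6 replicate 2 (0.0630), ZT9 replicate 3 (0.0687) or ZT21 replicate 4 (0.0624). Its adjusted p within lanes 2, 3 and 4 was 0.108, 0.623 and 0.670. The ratio of Col1a1 to Col1a2 per length was 1.36 ± 0.137 over the 32 libraries, with 1.46 to 1.62 in the mice at ZT3 and 1.12 to 1.22 at ZT15. Its size rests on annotated exonic lengths of 6563 bases for Col1a1 and 12426 for Col1a2, and is not read as a ratio of transcript numbers.

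Col3a1 read 366, 502, 391 and 329.8 CPM at ZT3 and 169, 224, 208 and 259 CPM at ZT0, again apart. Its means were 215 ± 37.2 CPM at ZT0, 397 ± 74.1 at ZT3, 345 ± 122 at ZT6, 380.1 ± 122 at ZT9, 331 ± 39.6 at ZT12, 245 ± 96.7 at ZT15, 266 ± 42.2 at ZT18 and 223 ± 52.6 at ZT21. It peaked at ZT7.60 ± 0.951 h with an amplitude of 0.38 ± 0.0957 (edgeR, adjusted p = 0.00446, and 0.0290 beside lane). Its adjusted p was 0.0382, 0.397 and 0.473 within lanes 2, 3 and 4. Of the remaining fibrillar chains, Col27a1 had an adjusted p of 0.214 without lane and 0.0178 beside lane, and Col11a2 one of 0.0792 (edgeR).

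The 3 main type VI chains, which assemble into 1 trimer before forming beaded filaments, had like profiles. Col6a1 read 84.1, 84.0, 81.6 and 80.7 CPM at ZT3 and 63.1, 46.8, 64.4 and 44.6 CPM at ZT21. Its means were 56.6 ± 8.06 CPM at ZT0, 82.6 ± 1.71 at ZT3, 78.8 ± 15.4 at ZT6, 75.4 ± 14.5 at ZT9, 70.5 ± 6.09 at ZT12, 57.5 ± 11.2 at ZT15, 65.2 ± 7.19 at ZT18 and 54.7 ± 10.5 at ZT21. At ZT3 its mice were closer together than at any other time point. It peaked at ZT7.03 ± 0.911 h with an amplitude of 0.25 ± 0.0600 (edgeR, adjusted p = 0.00383, and 0.0143 beside lane).

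Col6a2 read 86.2, 96.0, 87.8 and 80.8 CPM at ZT3 and 65.2, 48.1, 67.8 and 45.4 CPM at ZT21. Its means were 60.5 ± 8.07 CPM at ZT0, 87.7 ± 6.32 at ZT3, 86.3 ± 18.7 at ZT6, 78.5 ± 15.0 at ZT9, 73.0 ± 5.30 at ZT12, 60.7 ± 11.8 at ZT15, 66.3 ± 3.24 at ZT18 and 56.6 ± 11.5 at ZT21. Its highest and lowest groups did not overlap, and its curve peaked at ZT6.79 ± 0.825 h (edgeR, adjusted p = 0.00126, and 0.0119 beside lane). Col6a3, the longest chain of the trimer, read 93.6, 94.6, 85.1 and 90.2 CPM at ZT3 and 68.9, 55.6, 64.0 and 44.3 CPM at ZT21. Its means were 62.0 ± 7.78 CPM at ZT0, 90.9 ± 4.27 at ZT3, 83.5 ± 13.2 at ZT6, 82.5 ± 14.1 at ZT9, 75.2 ± 5.56 at ZT12, 64.1 ± 12.9 at ZT15, 67.8 ± 4.48 at ZT18 and 58.2 ± 10.8 at ZT21, and it peaked at ZT7.01 ± 0.810 h (edgeR, adjusted p = 0.00120, and 0.0212 beside lane). Within lane 2 the adjusted p of the 3 chains was 0.0297 (Col6a1), 0.0367 (Col6a2) and 0.0195 (Col6a3), and none passed within lane 3 or 4. Col6a6, a chain that can stand in for Col6a3, had an adjusted p of 0.0770.

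Col15a1, a multiplexin that bridges basement membranes and fibrils, read 59.0, 61.9, 59.8 and 69.0 CPM at ZT3 and 29.8, 34.9, 17.2 and 29.4 CPM at ZT15. Its means were 41.6 ± 6.58 CPM at ZT0, 62.4 ± 4.56 at ZT3, 52.7 ± 5.63 at ZT6, 53.4 ± 11.4 at ZT9, 36.0 ± 3.90 at ZT12, 27.8 ± 7.52 at ZT15, 33.3 ± 3.64 at ZT18 and 33.4 ± 7.08 at ZT21. The light-phase groups ZT3 and ZT6 lay above all mice of ZT12, ZT15, ZT18 and ZT21. It peaked at ZT4.92 ± 0.499 h with a fold of 2.05 (edgeR, adjusted p = 1.46e-06, and 0.000559 beside lane), and its adjusted p was 0.0194, 0.0629 and 0.982 within lanes 2, 3 and 4. Col18a1, the other multiplexin and the source of endostatin, had an amplitude of 0.08 ± 0.0583 and an adjusted p of 0.412.

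Col12a1, a fibril-associated chain on the surface of type I fibrils, was lowest at ZT0, ZT3 and ZT6. It read 40.7, 28.3, 32.5 and 28.7 CPM at ZT12 and 16.1, 20.1, 17.6 and 17.3 CPM at ZT3. Its means were 18.0 ± 4.06 CPM at ZT0, 17.8 ± 1.67 at ZT3, 19.7 ± 3.40 at ZT6, 25.8 ± 3.10 at ZT9, 32.5 ± 5.77 at ZT12, 26.2 ± 3.89 at ZT15, 30.8 ± 6.14 at ZT18 and 30.9 ± 4.68 at ZT21. These 3 time points make up lane 2. Its cosine call (edgeR, adjusted p = 0.000210) was lost beside lane (0.610), and no lane showed a difference within it (adjusted p = 0.727, 0.329 and 0.984 in lanes 2, 3 and 4), so for this gene lane and time of day cannot be told apart. Col7a1, the anchoring fibril chain, had its highest mean at ZT18 with 6.04 ± 0.310 CPM and its lowest at ZT6 with 2.97 ± 0.561 CPM (edgeR, adjusted p of the cosine 0.0164, and 0.224 beside lane). Col20a1 peaked at ZT5.76 ± 1.05 h (edgeR, adjusted p = 0.0103, and 0.221 beside lane), and another transcript on its strand overlaps 1.54% of its exonic length.

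The 11 members without a called cosine, of which 5 (Col11a2, Col13a1, Col14a1, Col28a1 and Col6a6) passed the threshold in at least 1 fit with a library left out, were Col27a1, Col18a1, Col8a1, Col4a5, Col14a1, Col23a1, Col6a6, Col11a2, Col28a1, Col16a1 and Col13a1, with adjusted p from 0.0692 to 0.412 (edgeR). Their amplitudes ran from 0.08 to 0.49, and the largest, that of Col14a1, came with a median variation of 53.9% between mice of a time point.

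**Figure D3:**
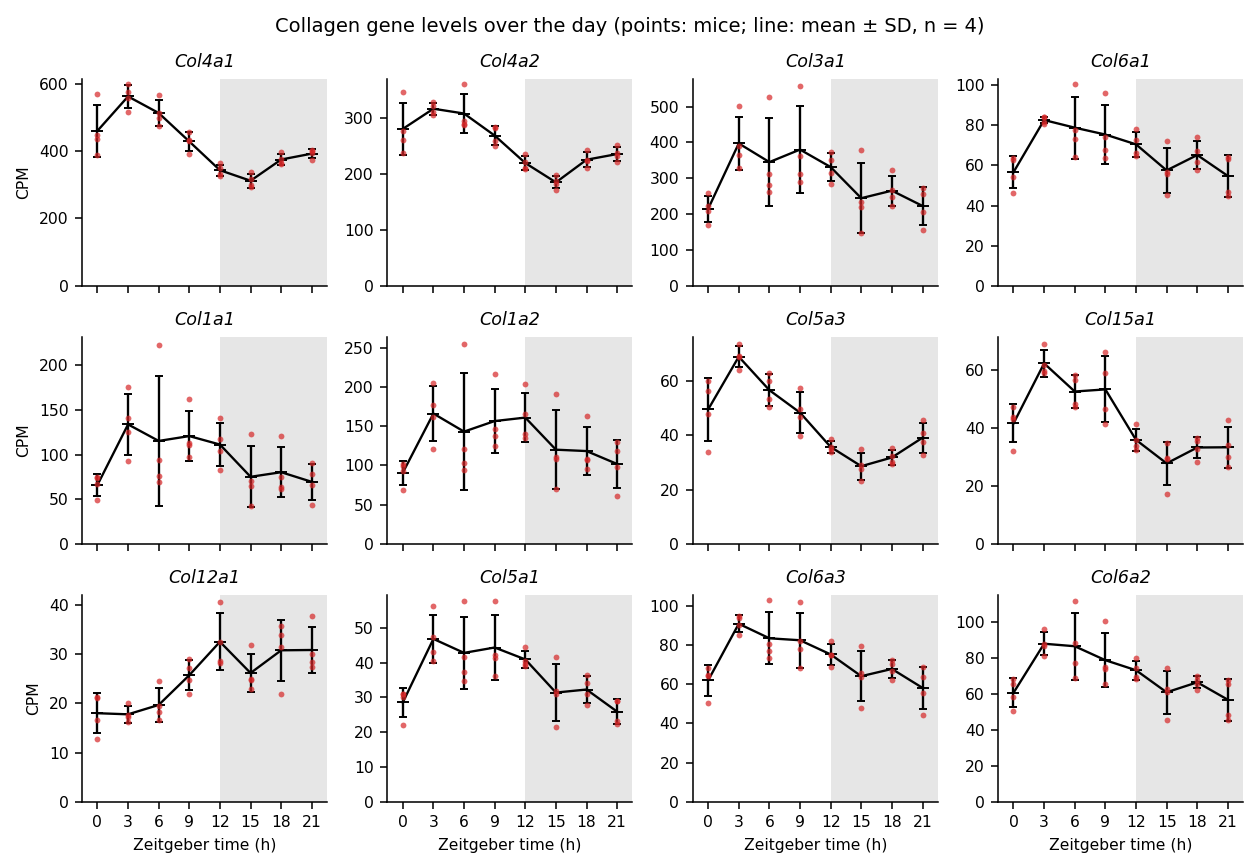
CPM of 12 collagen genes over the day (x axis: ZT in hours, dark phase shaded); red points are single mice and the line gives the mean ± SD of 4 mice per time point. Col4a1 falls from 562 CPM at ZT3 to 312 CPM at ZT15, while Col12a1 moves from 17.8 CPM at ZT3 to 32.5 CPM at ZT12.

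Time points 12 h apart were compared in the fit of all 8 groups (edgeR, log2 fold change ± SE). In every such contrast the time points lay on different lanes, so lane and time cannot be told apart there. At ZT15 against ZT3, early dark against early light, 9 members were lower, beside 7.28% of all tested genes in that direction, and 1 was higher, beside 6.89%. The lower ones were led by Col4a1 (-0.85 ± 0.0838, adjusted p = 1.11e-07), Col5a3 (-1.27 ± 0.140, adjusted p = 6.86e-07), Col4a2 (-0.78 ± 0.0875, adjusted p = 9.82e-07), Col15a1 (-1.16 ± 0.171, adjusted p = 3.43e-05), Col6a3 (-0.50 ± 0.138, adjusted p = 0.0144) and Col6a1 (-0.52 ± 0.149, adjusted p = 0.0181), and Col6a2, Col5a1 and Col5a2 followed. Col12a1 was the higher one (0.56 ± 0.163, adjusted p = 0.0212). The contrast called 5 members in place of 10 without ZT15 replicate 3, and 6 when scaled by library size alone.

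At ZT18 against ZT6, mid dark against mid light, 6 members were lower, beside 8.68% of all tested genes, and 2 were higher, beside 8.18%. Lower were Col5a3 (-0.83 ± 0.139), Col4a1 (-0.45 ± 0.0833), Col4a2 (-0.45 ± 0.0872), Col15a1 (-0.66 ± 0.169), Col20a1 (-0.61 ± 0.177) and Col4a4 (-0.70 ± 0.232). Higher were Col7a1 (1.02 ± 0.254, adjusted p = 0.00675) and Col12a1 (0.64 ± 0.163, adjusted p = 0.00733). At ZT21 against ZT9, late dark against late light, 6 members were lower, beside 5.11% of all tested genes, and 0 were higher, beside 4.51%. These were Col5a1 (-0.78 ± 0.171, adjusted p = 0.00457), Col15a1 (-0.68 ± 0.169), Col6a3 (-0.50 ± 0.138), Col3a1 (-0.77 ± 0.245), Col6a2 (-0.47 ± 0.151) and Col6a1 (-0.46 ± 0.149, adjusted p = 0.0480). In this contrast 14 members had an unadjusted p under 0.05, 12 of them lower, beside 12.7% of all tested genes, and Col4a5 and Col11a2 higher, beside 11.8%. DESeq2 called 7 members in either direction, beside 10.8%. The edgeR count dropped to 2 without ZT21 replicate 2, to 1 without ZT21 replicate 4 and to 3 without ZT3 replicate 3, ZT9 replicate 3, ZT12 replicate 3, ZT15 replicate 2 or 4, or ZT18 replicate 1 or 2. It was also 3 when scaled by library size alone or without the filter, and 1 with the 8 libraries of the contrast alone.

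At ZT12 against ZT0, the onset of the dark against that of the light phase, 3 members were lower, beside 8.15% of all tested genes, and 2 were higher, beside 7.71%. The basement membrane chains Col4a1 (-0.42 ± 0.0833, adjusted p = 0.000900) and Col4a2 (-0.35 ± 0.0871, adjusted p = 0.00631) and the minor fibrillar chain Col5a3 (-0.47 ± 0.139, adjusted p = 0.0201) were lower. Col12a1 (0.85 ± 0.164, adjusted p = 0.000681) and Col5a1 (0.52 ± 0.171, adjusted p = 0.0382) were higher. Without the libraries high in muscle transcripts the contrast called 3 members in place of 5. The type I and III chains had positive values that missed the threshold, 0.83 ± 0.293 for Col1a2 (adjusted p = 0.0528), 0.75 ± 0.327 for Col1a1 (0.116) and 0.62 ± 0.245 for Col3a1 (0.0810).

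**Figure D4:**
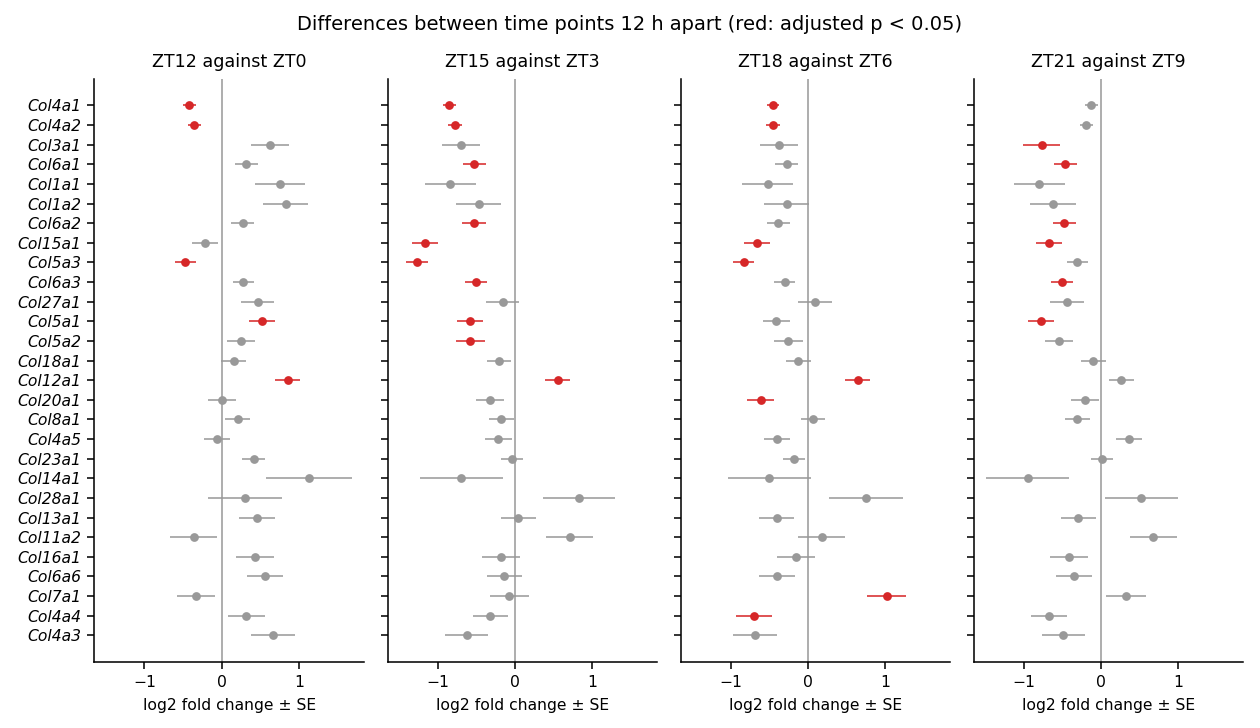
Log2 fold change ± SE (x axis) of each collagen gene, ordered by level per length, between time points 12 h apart; red points passed an adjusted p of 0.05 in the edgeR fit of all 8 groups. Most red points lie left of 0 at ZT15 against ZT3 (9 of 10) and all 6 do at ZT21 against ZT9, while Col12a1 lies right of 0 in all 4 contrasts.

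Mice of the same time point were compared to see which chains went up and down together, as deviations of log2 CPM from the time point mean over 32 libraries, with permutation of mice within time points and BH over 9 relations. Col1a1 and Col1a2 had r = 0.98 and rho = 0.98, and Col1a1 and Col3a1 had r = 0.93 and rho = 0.92. Col6a1 and Col6a2 had r = 0.96 and rho = 0.93, and Col4a1 and Col4a2 had r = 0.92 and rho = 0.87. Each of these 4 had the smallest p that 100000 permutations can give, 1e-05 (adjusted p = 1.8e-05 by the permutation test), with r from 0.85 to 0.97 without the 2 libraries farthest from the median of the first gene, and from 0.89 to 0.99 within the 3 lanes. Between the type I and the type IV chain the relation was looser, r = 0.38 and rho = 0.48 for Col1a1 with Col4a1 (permutation p = 0.0359 and 0.0138, adjusted p of r 0.0462), and r = 0.39 without the 2 farthest libraries and 0.30 without the 5 highest in muscle (n = 27, permutation p = 0.173). Within lanes 2, 3 and 4 that r was 0.22, 0.56 and 0.85 (permutation p = 0.412, 0.108 and 0.0399).

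Markers of the cells that make collagen were set beside the members, and the counts called in these lists stand beside 36.1% of all tested genes by the edgeR cosine and 17.2% beside lane. Col1a1 and Pdgfra, the receptor that marks fibroblasts and adipocyte progenitors, had r = 0.86 and rho = 0.85 (permutation p = 1e-05, adjusted p = 1.8e-05), with r = 0.85 without the 2 farthest libraries and 0.81, 0.93 and 0.92 within lanes 2, 3 and 4. The mouse highest in Pdgfra was also the highest in muscle markers at 6 of 8 time points, and without the 5 libraries highest in muscle r was 0.82 (n = 27, permutation p = 3e-05). Pdgfra itself had a cosine component with a peak at ZT7.29 ± 0.880 h (edgeR, adjusted p = 0.00278, and 0.0185 beside lane). Of 7 fibroblast markers 3 were called (Pdgfra, Thy1 and Ly6a), 1, Pdgfra, beside lane, 1 by JTK at P under 0.05 and 1 for any difference between time points, and their summed level had means from 127 ± 35.7 CPM at ZT21 to 184 ± 36.0 CPM at ZT3, with no marker at 0 in all libraries. The part of fibroblast number in the type I and III profiles was not tested. Col4a1 and the endothelial marker Pecam1 had r = 0.33 and rho = 0.29 (permutation p = 0.0851 and 0.161, adjusted p of r 0.0957), with r = 0.24 without the 2 farthest libraries, 0.61 when scaled by library size alone (permutation p = 0.00181), and 0.74, 0.22 and -0.36 within lanes 2, 3 and 4 (permutation p = 0.0112, 0.563 and 0.505).

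The sum of 5 endothelial markers had means from 686 ± 29.2 CPM at ZT12, with 666 to 729 CPM in the mice, to 895 ± 37.4 CPM at ZT3, with 852 to 943 CPM, and these groups did not overlap. It was 822 ± 54.5 CPM at ZT15, where Col4a1 was lowest. Its part in the type IV profiles was not tested. Of these markers 2 were called (1 of 5 beside lane), Kdr with a peak at ZT23.8 ± 0.779 h and Cdh5 at ZT3.01 ± 1.11 h. Among pericyte and smooth muscle markers 2 of 6 were called (1 of 6 beside lane), Pdgfrb with a peak at ZT7.49 ± 0.986 h and Notch3 at ZT12.3 ± 0.967 h, and the summed level ran from 761 ± 38.7 CPM at ZT18 to 898 ± 50.4 CPM at ZT6. Of the brown adipocyte markers 3 of 7 were called (Ucp1, Plin1 and Adipoq) and 1, Plin1, beside lane, and Ucp1, the uncoupling protein of heat production, was at 1275 to 2973 CPM in the means of the 8 time points. Col1a1 and Ucp1 had r = -0.43 and rho = -0.46 (permutation p = 0.0291 and 0.0202, adjusted p of r 0.0437). Without the 2 farthest libraries r was -0.22 (permutation p = 0.301), so the value of r depends in part on those 2. Without the 5 libraries highest in muscle r was -0.45 (n = 27, permutation p = 0.037). In lanes 2, 3 and 4 alone r was -0.66, -0.29 and -0.48 (permutation p = 0.101, 0.339 and 0.253).

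**Figure D5:**
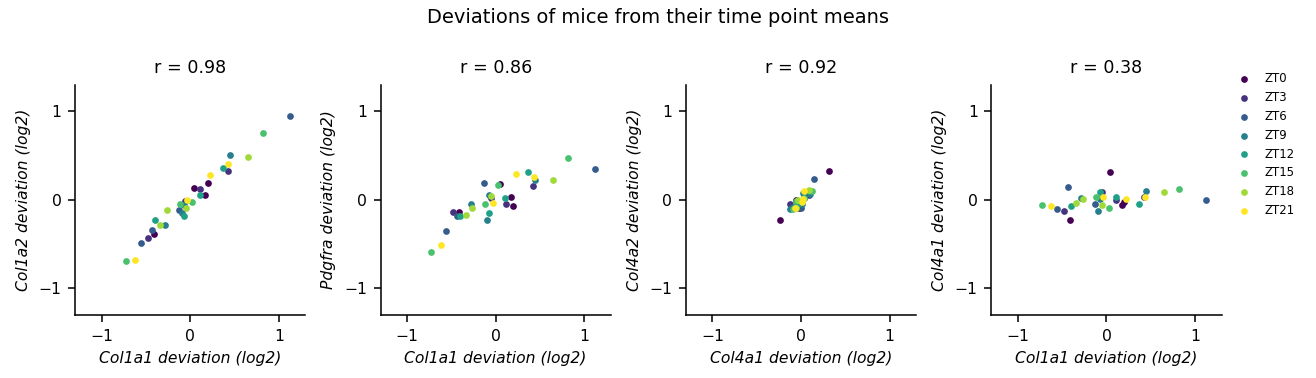
Deviation of each of 32 mice from its time point mean (log2 CPM, both axes; colours are time points) for 4 pairs of genes. Col1a1 lies close to a line with Col1a2 (r = 0.98) and with Pdgfra (r = 0.86), Col4a1 does so with Col4a2 (r = 0.92), and Col1a1 against Col4a1 is loose (r = 0.38).

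Macrophage markers were called in 3 of 4 genes (Adgre1, Csf1r and Cd163) with peaks from ZT7.46 to ZT10.4, and the white fat markers Lep and Nnat in 2 of 2. Beside lane 1 of each list was left, Adgre1 and Lep. By JTK 2 of the 4 macrophage markers had P under 0.05 and 0 passed BH. None of 5 Schwann cell, 7 skeletal muscle or 4 blood markers had a cosine called by edgeR or JTK, and 1 Schwann cell marker, 0 muscle and 0 blood markers had an unadjusted edgeR p under 0.05, beside 46.8% of all tested genes. The 4 tendon and cartilage markers and the 3 mesothelial markers were below the filter in all their genes, with a summed level of at most 0.976 and 0.812 CPM in a library. The summed Schwann cell markers had means from 56.7 ± 4.48 CPM (SD, n = 4 mice) at ZT0 to 139 ± 80.5 CPM at ZT3. Means of the summed muscle markers ran from 323 ± 639 CPM at ZT6 to 2487 ± 2188 CPM at ZT15. Their part in the collagen profiles was not tested. In single libraries the summed muscle markers ran from 2.06 to 5199 CPM, and 5 libraries were over 10 times the median of 353 CPM. These were ZT0 replicate 3, ZT3 replicate 2, ZT12 replicate 2, ZT15 replicate 1 and ZT18 replicate 4.

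The enzymes and chaperones that fold collagen had peaks spread over both phases. The counts of this and the following lists stand beside 36.1% of all tested genes called by the edgeR cosine and 17.2% called beside lane, and their light-phase peaks beside the 50.9% of all called genes, and a list near these shares is not set apart by its count. Of 20 tested genes of collagen synthesis and folding 9 were called, 5 with a peak in the light and 4 in the dark phase, and 5 of 20 were called beside lane. Serpinh1, the collagen chaperone HSP47, peaked at ZT21.4 ± 0.736 h (adjusted p = 0.000237, and 1.29e-05 beside lane), with means of 397 ± 69.9 CPM at ZT0 and 162 ± 13.5 CPM at ZT12. P4ha1, a subunit of prolyl 4-hydroxylase that stabilises the triple helix, peaked at ZT20.8 ± 0.808 h (adjusted p = 0.000530, and 3.61e-07 beside lane), from 11.9 ± 1.71 CPM at ZT9 to 64.9 ± 14.3 CPM at ZT0. Fkbp10, another folding factor of the type I chain, peaked at ZT8.44 ± 0.561 h (adjusted p = 3.08e-05). Col1a1 and Serpinh1 had r = 0.22 and rho = 0.24 within time points (permutation p = 0.331 and 0.261), with r = 0.18 without the 2 farthest libraries and 0.49, -0.28 and 0.21 within lanes 2, 3 and 4. At ZT0, where the mean of Serpinh1 was the highest of the 8, those of Col1a1, Col1a2 and Col3a1 were the lowest.

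Of 8 tested genes of propeptide processing, which trims the ends of the fibrillar chains, 4 were called, led by Sparc (ZT6.31 ± 0.901 h), the procollagen protease Adamts2 (ZT8.50 ± 0.978 h) and Pcolce2 (ZT12.4 ± 1.08 h). None of the 8 was called beside lane by edgeR, where 2 had an unadjusted p under 0.05, beside 30.6% of all tested genes, and none by JTK after BH, where 3 had P under 0.05. Of 4 cross-linking oxidases 3 were called, and 2, Loxl1 and Loxl2, beside lane. Lox peaked at ZT21.5 ± 0.577 h, with 37.3 ± 7.07 CPM at ZT21 and 14.9 ± 2.7 CPM at ZT9 (adjusted p = 8.87e-06, and 0.124 beside lane), and Loxl2 peaked at ZT6.32 ± 0.719 h (adjusted p = 0.000236, and 2.21e-05 beside lane) and Loxl1 at ZT8.79 ± 0.922 h.

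Of 15 genes of collagen breakdown and uptake 10 were called, 7 with a peak in the light phase, and 5 of 15 beside lane, Mmp15, Mmp14 and Mmp9 among them. Mmp15 peaked at ZT22.8 ± 0.395 h, and the collagenase gene Mmp14 and the gelatinase gene Mmp9 at ZT6.04 ± 0.597 and ZT6.74 ± 0.699 h. Mmp14, which sits in the cell membrane, had 13.8 ± 2.68 CPM at ZT6 and 6.64 ± 1.48 CPM at ZT15. Among 7 collagen receptors 4 were called, namely Itga10 (ZT21.2 ± 0.779 h), Ddr1 (ZT15.1 ± 0.876 h), Itga1 (ZT1.06 ± 0.926 h) and Ddr2, and 1, Itga10, was called beside lane.

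Among partners of the collagens in the matrix, 5 of 12 basement membrane genes were called and all 5 peaked in the light phase, led by Npnt (ZT3.19 ± 0.630 h), the laminin chain Lama2 (ZT8.23 ± 0.717 h) and perlecan, Hspg2 (ZT7.60 ± 0.937 h). Beside lane 5 of 12 were called, Npnt and Hspg2 among them and Lama2 not. Of 14 other matrix glycoproteins 8 were called, all 8 with a peak in the light phase, led by the elastic fibre genes Fbln5 (ZT5.65 ± 0.455 h) and Fbn1 (ZT5.23 ± 0.593 h) and by Tnxb (ZT9.18 ± 0.554 h), and 4 of 14, these 3 among them, beside lane. Of 8 fibril-associated proteoglycans 4 were called, led by Podn (ZT12.9 ± 0.652 h), Prelp (ZT9.82 ± 0.915 h) and Lum (ZT10.8 ± 1.1 h), and 1 of 8, none of these 3, was called beside lane. Of 13 tested genes among 14 listed for the TGF-beta pathway, a main inducer of collagen genes, 3 were called, among them Ltbp4 (ZT12.0 ± 0.597 h) and the receptor gene Tgfbr2 (ZT19.3 ± 0.741 h), both of which were also called beside lane.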

How the data were processed

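RNA of iBAT from 32 mice (8 time points, 4 mice each) was sequenced by the authors as stranded 100 bp paired-end libraries. Per the methods and the labels, the authors mapped reads to the mouse genome (mm10) with GSNAP and counted them per Ensembl gene with HTSeq-count (0.6.1). The deposited values are raw counts with no normalization, and whether the counting used strand is not stated. A symbol was found for 50376 of 50686 identifiers. Coordinates are those of GENCODE on GRCm38, not the release of the authors. No pair of libraries of a time point differed as little as counting noise (lowest mean chi-square 7.97 over 48 pairs), so all were kept as separate mice.

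Counts were filtered with filterByExpr (time point as group), scaled with TMM and fitted with edgeR 4.0.16 in R 4.3.3 (quasi-likelihood test, BH over all 15505 tested genes, threshold 0.05). Models held a 24 h cosine, the 8 time points, 12 h contrasts, a cosine beside lane, and the time points of each lane alone. Amplitude and peak came from least squares on log2 CPM (prior count 2). JTK cycle was an own implementation on CPM (periods 21 and 24 h, 15 templates, exact null, template values equal in theory ordered by rounding of pi, Bonferroni over templates, P threshold 0.05). Relations used 100000 permutations. P-values measure the spread between these mice. DESeq2 1.42.0 was an alternative, as were other scalings, no filter, removal of mitochondrial genes, a replicate block and libraries left out. Scripts were tested on simulated data.

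The members, lists and tests were chosen with earlier results of these data known. Values in every mouse are given for the 6 members with the highest RPKM and the 8 with the smallest cosine p; every called member of a contrast or lane test is named, with values for the 6 of smallest p, and up to 3 called genes of each other list. The values of 1 listed gene are not reported here.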

Additional observations from a re-analysis of the deposited data

Results flagged for a closer look

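Within each time point the highest or lowest of the 4 mice was compared with the rest, for the 12 collagen genes given mouse by mouse and for the sum of all members, 104 groups in all. In 3 of them the gap to the nearest mouse, divided by the range of the group, was above Dixon's 95% critical value, and chance flags about 1 in 20 groups. At ZT6 the mouse with the highest Col1a1 had 223 CPM, beside a mean of 115 CPM. The same library had 1281 CPM of summed skeletal muscle markers, and the other 3 of ZT6 had 2.06 to 4.83 CPM. The part of muscle in this value was not tested. At ZT6 the mouse with the highest Col4a2 had 361 CPM, beside a mean of 308 CPM. At ZT0 the mouse with the lowest Col5a1 had 22.1 CPM, beside a mean of 28.6 CPM.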

How the results depend on the processing

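The number of members with a cosine component was 17 under each other scaling, without the filter, without mitochondrial genes, with DESeq2 and without the libraries high in muscle transcripts, and 16 of the 17 called members kept their call in each of these and with each library left out (Col1a2 did not), as did 6 of the 11 uncalled members. Lane as an added term is not among these alternatives. With it 8 called members lost their call and 1 uncalled member, Col27a1, gained it. Unless a share is printed beside it, a member count under an alternative comes without the share of all tested genes in that fit. Such counts show how the member counts depend on the processing, and not a trait of the collagen genes. Counts that moved by over 1.5 times were as follows, and the cause was not tested. Scaled by library size alone, lane 3 gave 1 member, ZT15 against ZT3 gave 6 and ZT21 against ZT9 gave 3. Without the filter ZT21 against ZT9 gave 3, and with the 8 libraries of the contrast alone it gave 1. Without the libraries high in muscle, lane 2 gave 0 and ZT12 against ZT0 gave 3, in fits with fewer samples. DESeq2 called 2 members in lane 4. Of the 9 relations between genes 7 passed, and 5 without the libraries high in muscle (chosen after seeing the data), where the adjusted calls of Col1a1 with Ucp1 (r = -0.45, beside -0.43 in all libraries) and with Col4a1 (r = 0.30, beside 0.38) were lost with fewer mice. At a JTK threshold of P under 0.01 there were 10 members. With the log2 muscle sum as a covariate, chosen after seeing the data, lane 2 gave 11, lane 3 gave 0 and lane 4 gave 2.

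Leaving out each library in turn gave 16 to 19 members for the cosine, 14 to 18 for time points, 8 to 14 beside lane, 13 to 20 for JTK P and 9 to 16 for JTK BH. It gave 4 to 6 members at ZT12 against ZT0, 5 to 13 at ZT15 against ZT3, 6 to 8 at ZT18 against ZT6 and 1 to 7 at ZT21 against ZT9, and 1 to 14, 0 to 3 and 0 to 1 within lanes 2, 3 and 4.

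Replicate numbers did not pair the mice: the mean correlation of deviations was -0.03 for the same number and 0.01 for different numbers, and it was over 0.1 in 6 of 28 pairs of time points. With a replicate block the cosine gave 17 members, lane 3 gave 1 and ZT21 against ZT9 gave 3.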
